A study of Mus musculus with 12 samples.

Results

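Inflammasomes are protein complexes that assemble in the cytosol of macrophages when a sensor meets a microbial product or a sign of cell damage. The sensor recruits the adaptor ASC, ASC recruits caspase-1, and caspase-1 cuts the precursors of IL-1β and IL-18 and the pore-forming protein gasdermin D, which releases the cytokines and can end in the lytic death called pyroptosis. In macrophages the amounts of sensor and cytokine precursor are set largely by transcription in a priming step, and assembly is set by a second signal that acts on the proteins, so RNA levels describe the parts and not the activity of the complex. The 10 genes described here encode the sensors Nlrp3, Nlrc4, Nlrp1b and Aim2, the adaptor Pycard (ASC), the proteases Casp1 and Casp4 (the mouse caspase-11, which detects cytosolic lipopolysaccharide), the executor Gsdmd, and Nek7 and Txnip, whose proteins bind NLRP3. They were taken by gene symbol from the count table, where all 10 were among the 12960 genes listed and all 10 were among the 10822 genes that passed the filter on low counts.

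Bone marrow-derived macrophages (BMDMs) were grown from marrow of wild-type (WT) mice and of mice that lack the AMPK subunit β1 in the whole body (AMPKβ1-/-), with medium from L929 cells as the source of M-CSF. Both genotypes were treated for 6 h with 10 μM of PF-06409577 (PF), an activator of AMPK complexes that contain β1, or with its vehicle, 0.1% DMSO. Each of the 4 groups was sequenced as 3 RNA libraries. Beside PF or vehicle, the sources used here name no priming stimulus. The strain, age and sex of the mice and whether the 3 libraries of a group came from separate mice or cultures are not given in the sources used here, so the p-values measure the spread between these libraries, which may be technical. AMPKβ1-/- cells had lacked β1 throughout development and culture, whereas PF acted for hours. In bulk RNA, fewer cells that express a gene and less RNA per cell cannot be told apart.

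The libraries held 8935609 to 14358180 estimated counts, and a gene at 0 in a library could still have up to 3 counts, or 0.196 to 0.321 CPM, the counts scaled to a common library size with TMM normalization. All 8 macrophage markers, among them Adgre1, Csf1r and Lyz2, were present and summed to between 25191 and 29681 CPM in every library. Markers of neutrophils summed to at most 1.22 CPM, with Ly6g, Elane, Camp and Retnlg absent from the table, and markers of dendritic, lymphoid, mast, fibroblast, erythroid and endothelial cells summed to at most 5.47 CPM for any list. Kit, the only mast cell marker in the table, was at 1.11 to 1.59 CPM in WT with vehicle, 2.49 to 4.02 in WT with PF, 0.424 to 0.652 in AMPKβ1-/- with vehicle and 0.785 to 0.871 in AMPKβ1-/- with PF, and its part in the results was not tested. Prkab1, the gene for β1, was at 43.4, 44.2 and 45.3 CPM in WT BMDMs with vehicle and at 8.39, 7.70 and 6.05 CPM in AMPKβ1-/- BMDMs with vehicle, which gave −2.57 on the log2 scale (SE 0.12) and an adjusted p of 8.85e-09 with edgeR's quasi-likelihood test. Which part of Prkab1 is disrupted is not given in the sources used here. The libraries also differed in how counts depended on the GC content of the transcript. The slope of log2 CPM on GC content, relative to the mean of all libraries, was 0.36 to 0.72 per 10 points of GC in WT BMDMs with vehicle, −0.053 to 0.37 in WT with PF, −0.36 to −0.10 in AMPKβ1-/- with vehicle and −0.51 to −0.33 in AMPKβ1-/- with PF. All 6 WT libraries lay above all 6 AMPKβ1-/- libraries, so this slope and the genotype cannot be told apart by a split of the libraries, and values with an offset for it are given beside the results.

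On the GRCm38 build with the GENCODE M21 annotation, Nlrp3 lies on the plus strand at chr11:59541568-59566956 and Nlrp1b on the minus strand of the same chromosome at chr11:71153102-71230733. Nlrc4 is at chr17:74425438-74459142 (minus), Aim2 at chr1:173350879-173466040 (plus), Nek7 at chr1:138482875-138620141 (minus), Pycard at chr7:127989708-127993867 (minus), Gsdmd at chr15:75862327-75867408 (plus) and Txnip at chr3:96557957-96561883 (plus). Casp1 (chr9:5298517-5307265, plus) and Casp4 (chr9:5308828-5336783, plus) are neighbours on the same strand with 1562 bases between them. Of all windows of 50 bases, the read length, in a member's transcript, none of those of Nlrp3, Pycard, Casp1, Casp4, Gsdmd and Txnip occurred in a transcript of another gene. For the other 4 genes between 0.789% (Aim2) and 2.18% (Nlrp1b) did, with the paralog Nlrp1a holding 1.84% of those of Nlrp1b.

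The sequences just before the start sites of 4 members are shown because the results below turn on these genes: Nlrp3 was called lower with PF in WT cells without a GC offset, the neighbours Casp1 and Casp4 were both higher in AMPKβ1-/- cells without a GC offset, and Txnip had the smallest p of the members between genotypes. The stretches are from RefSeq on GRCm38.p6, all on the plus strand, at chr11:59541319-59541567, chr9:5298267-5298516, chr9:5308610-5308827 and chr3:96557707-96557956, and stop where an annotated coding gene begins. Capitals mark matches to the searched motifs.
Nlrp3: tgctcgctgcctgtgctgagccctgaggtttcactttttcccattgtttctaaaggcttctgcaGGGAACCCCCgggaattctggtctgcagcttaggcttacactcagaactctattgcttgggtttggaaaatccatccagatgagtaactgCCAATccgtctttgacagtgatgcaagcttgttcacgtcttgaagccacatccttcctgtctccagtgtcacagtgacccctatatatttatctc
Casp1: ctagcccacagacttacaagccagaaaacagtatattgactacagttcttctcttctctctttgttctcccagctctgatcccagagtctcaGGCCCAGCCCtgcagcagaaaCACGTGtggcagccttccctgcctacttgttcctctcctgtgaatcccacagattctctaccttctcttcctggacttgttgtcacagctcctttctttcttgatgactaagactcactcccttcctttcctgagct
Casp4: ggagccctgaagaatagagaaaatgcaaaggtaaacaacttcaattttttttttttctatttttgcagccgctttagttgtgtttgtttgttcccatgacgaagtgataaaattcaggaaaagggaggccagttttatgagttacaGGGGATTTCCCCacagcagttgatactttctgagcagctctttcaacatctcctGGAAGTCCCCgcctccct
Txnip: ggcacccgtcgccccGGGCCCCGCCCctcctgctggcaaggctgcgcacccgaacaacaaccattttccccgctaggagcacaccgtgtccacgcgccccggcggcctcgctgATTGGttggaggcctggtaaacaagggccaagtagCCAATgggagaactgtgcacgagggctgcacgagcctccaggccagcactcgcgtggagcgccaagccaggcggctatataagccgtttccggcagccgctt
The search covered 250 bases before the RefSeq start on both strands, and distances are counted from that start. The NF-κB pattern, GGG and CC with any 5 bases between them, was found before 5 of the 9 members with an entry (Nlrp3, Casp1, Casp4, Nek7 and Txnip), and 45.8% of all 32851 promoters in the table hold it. In Casp4 the pattern occurred in 3 overlapping places 102 to 104 bases before the start and again at 50 and 25 bases, the last of which lies past the stretch shown. CCAAT was found before Nlrp3, Aim2 and Txnip, the last with 2 matches at 102 and 137 bases (33.8% of all promoters), GGGCGG before Aim2, Nek7 and Txnip (32.7%), where it overlaps the NF-κB pattern in Txnip, and the E-box CACGTG before Casp1 alone (6.02%). The interferon-stimulated response element, GAAA and again GAAA after any 2 bases (2.98%), the AP-1 pattern TGANTCA (6.75%) and TATAAA (12.4%) were found before 0 of the 9. The stretches searched for Nek7, Aim2 and Nlrp1b lie inside the spans given above for these genes, so the matches of Nek7 and Aim2 do as well. The stretch of Nek7 begins within an exon of an annotated coding gene, and all its 250 bases would be left out by the rule for the stretches shown. A match describes these letters and is not a binding site.

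The 10 genes spanned a wide range of RNA levels, which are compared here per kilobase of transcript. In WT BMDMs with vehicle Txnip was the most abundant at 472 ± 15 CPM per kilobase (SD, n = 3), followed by Gsdmd at 105 ± 6.6. Nlrp3 was at 20.7 ± 2.1 and Casp1 at 14.5 ± 4.4, and their libraries overlapped at the edge (18.7 to 22.9 against 10.1 to 18.9). The remaining sensors were lower, with Nlrp1b at 6.44 ± 1.3, Aim2 at 3.41 ± 0.66 and Nlrc4 at 1.21 ± 0.29. Nek7 was at 3.97 ± 0.74 and Casp4 at 2.87 ± 1.3. This order is that of WT with vehicle and was not kept in the other groups. In WT with PF, mean Casp1 was at 21.1 and mean Nlrp3 at 17.1. In AMPKβ1-/- BMDMs Casp1 was at 28.2 and Nlrp3 at 22.6 with vehicle, and at 31.5 and 23.2 with PF. Nek7 was at 12.3 in AMPKβ1-/- with vehicle, where Nlrp1b was at 11.8. These levels carry no offset for GC content, and its part in the order was not tested. Pycard has transcripts of very unequal length, 3800 bases for the one used here with a coding part of 579 bases, so its 20.4 ± 3.6 CPM per kilobase depends on that choice. Casp4 (20 to 131 counts in a library) and Nlrc4 (39 to 159) rest on the fewest counts.

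**Figure D1:**
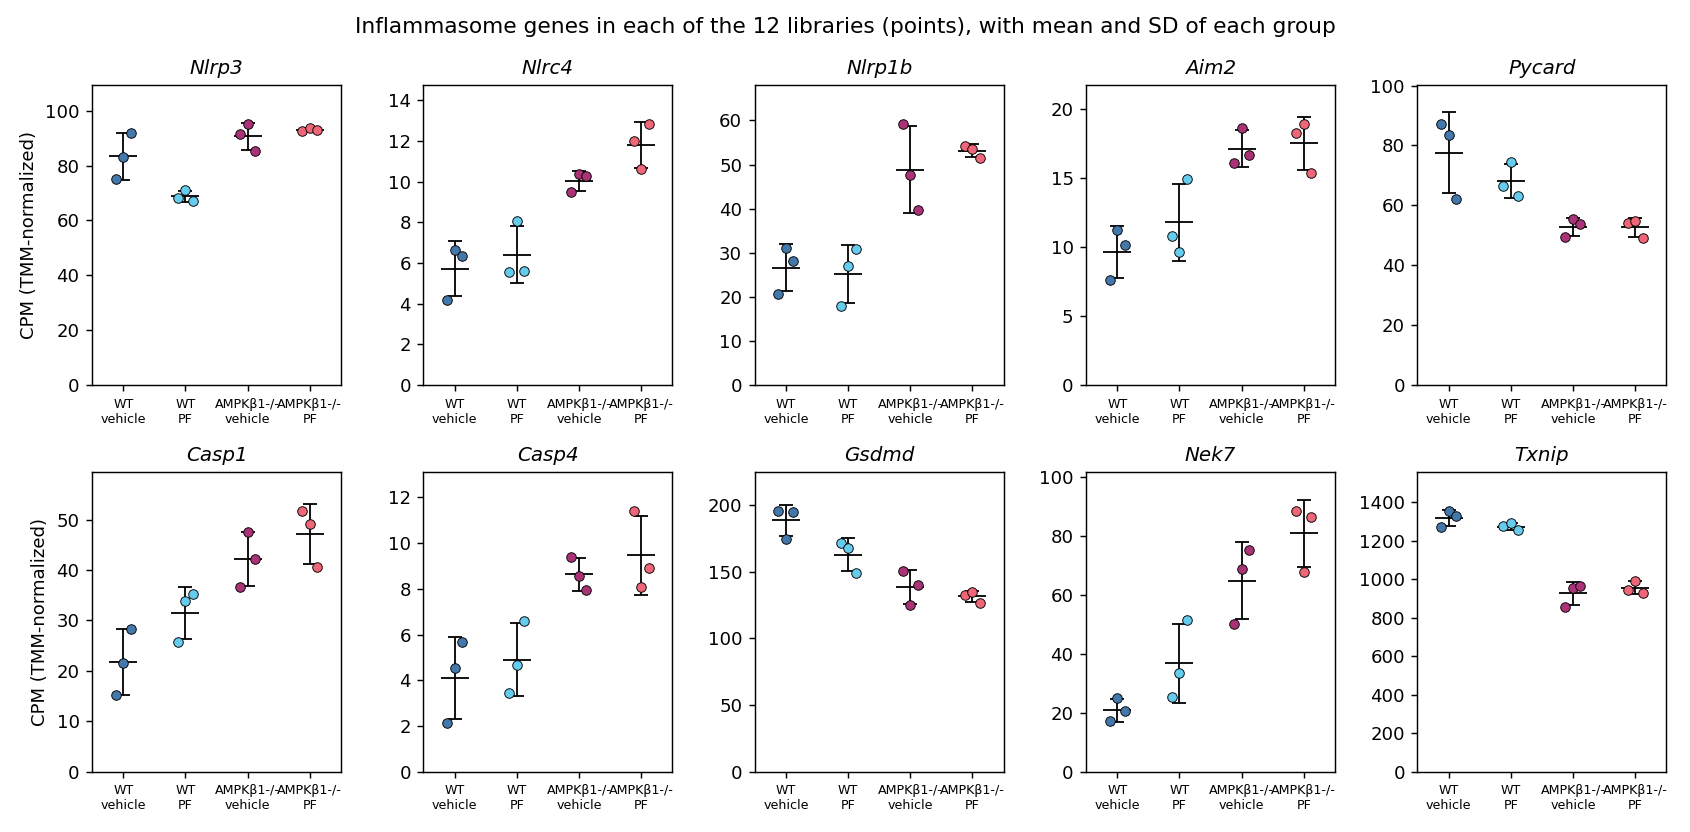
Level of each of the 10 inflammasome genes in CPM normalized with TMM (linear axes from 0), with 1 point per library, 3 libraries per group, and the mean and SD as bars. Within each treatment, Txnip, Pycard and Gsdmd sit lower in AMPKβ1-/- than in WT libraries, and Nlrc4, Nlrp1b, Aim2, Casp1, Casp4 and Nek7 sit higher.

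The first comparison asked how PF changed these genes in WT BMDMs. Nlrp3 fell and Nek7 rose, and the other 8 genes did not pass the test. The 2 genes called compare with 15.9% of all tested genes called in this contrast, 6.99% higher and 8.95% lower, so the share of the members was close to that background. The median log2 fold change of the members was 0.048, against 0.0048 over all tested genes. Of the 10 genes, 3 had PF and vehicle libraries that did not overlap, Nek7 upward and Nlrp3 and Gsdmd downward, where 32.2% of all tested genes did not overlap.

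Nlrp3, the sensor that responds to potassium efflux and many other triggers, was at 75.0, 83.0 and 92.0 CPM with vehicle and at 68.2, 71.1 and 67.2 CPM with PF in WT BMDMs. The PF libraries were all lower than the vehicle libraries, with a fitted level of 0.826 of vehicle. On the log2 scale this was −0.28 (SE 0.083, 95% interval −0.45 to −0.099), with an adjusted p of 0.0376 in edgeR's quasi-likelihood test. The direction was the same in all 22 alternatives, from −0.35 to −0.20, but the call was lost in 13 of them (highest adjusted p 0.144). Among these were 7 in which 1 library was left out (WT vehicle 2 or 3, WT PF 2 or 3, or any of the 3 AMPKβ1-/- PF libraries, with adjusted p from 0.052 to 0.144) and the offsets for transcript and coding GC content (adjusted p 0.0503 and 0.066).

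Nek7, a kinase-family protein that binds NLRP3 and is needed for its assembly, was at 17.1, 24.9 and 20.6 CPM with vehicle and at 25.3, 33.5 and 51.3 CPM with PF. The groups did not overlap, although the lowest PF library lay just above the highest vehicle library. The log2 fold change was 0.81 (SE 0.24, 95% interval 0.29 to 1.34, adjusted p 0.0402 with edgeR), and it was the only member past a log2 fold change of 0.8, as were 1.52% of all tested genes. Nek7 has a transcript with 40.4% GC, at the 5.30th percentile of tested genes. The WT PF library with the highest Nek7 level was also the WT library with the lowest GC slope, and the median log2 fold change of the 1014 genes within 2 points of its GC content was 0.46. With the transcript GC offset the log2 fold change of Nek7 was 0.38 (adjusted p 0.045), and with the coding GC offset 0.36 (adjusted p 0.104). Without WT vehicle library 1 or 3, WT PF library 2 or 3 or AMPKβ1-/- vehicle library 2 the call was lost, and without WT PF library 3 the log2 fold change was 0.50 (adjusted p 0.193). It was also lost with limma-voom (adjusted p 0.0509), without a low-count filter (0.0584) and with the libraries of the contrast alone (0.0651). Over all 22 alternatives Nek7 lost its call in 9, and its log2 fold change was between 0.36 and 1.02.

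Casp1, the protease that matures IL-1β and IL-18, was at 15.2, 21.6 and 28.3 CPM with vehicle and at 25.6, 33.8 and 35.2 CPM with PF, and the groups overlapped. The log2 fold change was 0.54 (SE 0.19, adjusted p 0.0707 with edgeR), close to the median of 0.44 of genes of like GC content, and it was 0.043 (adjusted p 0.914) with the transcript GC offset. DESeq2 called Casp1 (0.55, adjusted p 0.0221), as did the edgeR fits without WT vehicle library 3 or WT PF library 1. Gsdmd, the pore-forming executor, was at 196, 175 and 195 CPM with vehicle and at 172, 168 and 149 CPM with PF. All 3 PF libraries were lower, with a log2 fold change of −0.21 (SE 0.085) and an adjusted p of 0.0949, and −0.072 (adjusted p 0.54) with the transcript GC offset. Txnip, which binds thioredoxin and restrains glucose uptake, was at 1274, 1355 and 1326 CPM with vehicle and at 1275, 1290 and 1254 CPM with PF. These overlapped, and the 95% interval of its log2 fold change ran from −0.20 to 0.098. The intervals were wider for the sensors Nlrc4 (−0.27 to 0.57), Nlrp1b (−0.51 to 0.35) and Aim2 (−0.094 to 0.67). They were also wider for Casp4 (−0.38 to 0.89) and for Pycard (−0.43 to 0.053). Each of these intervals ran from a fall to a rise, and the smallest change that would be called was not tested.

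The second comparison asked the same of AMPKβ1-/- BMDMs. None of the 10 genes passed edgeR's test, and 0 had an unadjusted p below 0.05, where 0.0554% of all tested genes were called and 4.98% had an unadjusted p below 0.05. DESeq2 and limma-voom also called 0. The largest log2 fold changes were 0.32 for Nek7 (SE 0.22, 50.2, 68.9 and 75.2 CPM with vehicle and 88.4, 67.8 and 86.4 with PF) and 0.23 for Nlrc4 (SE 0.17). Nlrc4 was the 1 member whose groups did not overlap, against 14.5% of all tested genes. Nlrp3 was at 91.4, 95.1 and 85.5 CPM with vehicle and at 92.7, 93.6 and 93.1 CPM with PF, and its 95% interval ran from −0.14 to 0.21. Txnip was at 857, 956 and 967 CPM with vehicle and at 945, 993 and 929 CPM with PF, with an interval from −0.10 to 0.19.

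The difference between the responses of the genotypes (interaction, WT minus AMPKβ1-/-) was called for 0 of the 10 genes with edgeR, and with DESeq2 and limma-voom as well, where 0.416% of all tested genes were called. Nlrp3 was the 1 member with an unadjusted p below 0.05, as had 14.3% of all tested genes. Its difference was −0.31 on the log2 scale (SE 0.12, adjusted p 0.25), with a 95% interval from −0.56 to −0.065. For Nek7 the difference was 0.49 with an interval from −0.21 to 1.20. A response of Nlrp3 or Nek7 in WT that differs from that in AMPKβ1-/- BMDMs was therefore not shown over all genes. The plot of the responses shows both genotypes side by side.

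**Figure D2:**
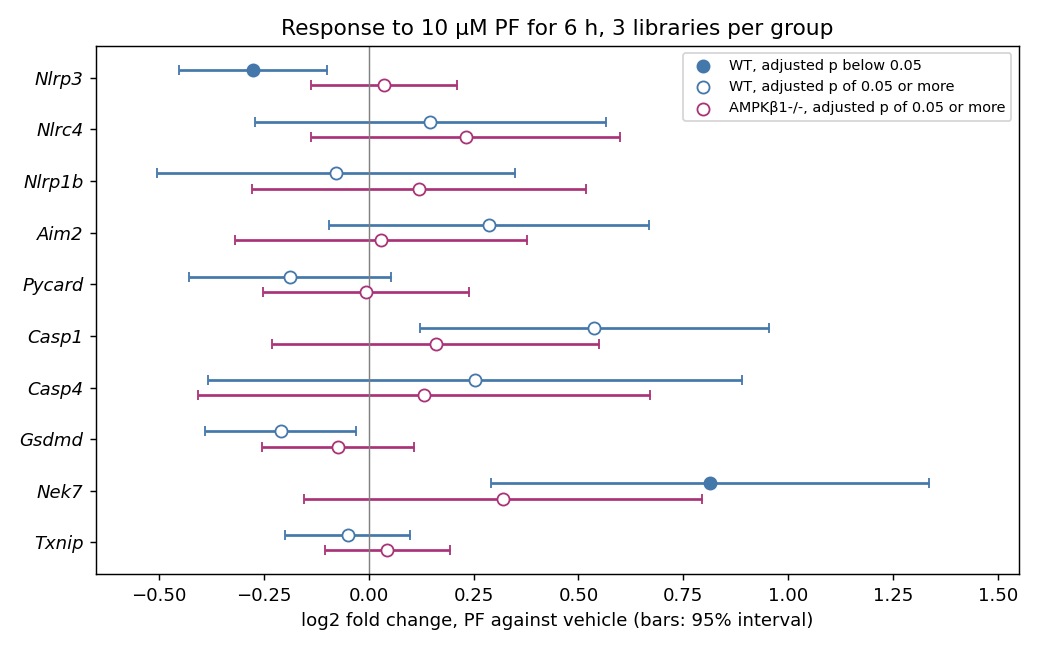
Log2 fold change of PF against vehicle for each gene in WT and in AMPKβ1-/- BMDMs, with 95% intervals from edgeR and 3 libraries per group. Filled points, adjusted p below 0.05, are Nlrp3 (−0.28) and Nek7 (0.81) in WT, and all AMPKβ1-/- intervals include 0.

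The third comparison asked how the genes differed between AMPKβ1-/- and WT BMDMs with vehicle. Here 6 genes were higher (Nlrc4, Nlrp1b, Aim2, Casp1, Casp4 and Nek7), 3 were lower (Pycard, Gsdmd and Txnip) and Nlrp3 was not called, and these 9 were also the genes whose groups did not overlap. The background in this contrast was high, with 59.7% of all tested genes called, 29.7% higher and 30% lower, and 62.9% not overlapping. The 6 higher genes were all past a log2 fold change of 0.8, as were 16.1% of all tested genes, and 0 of the lower genes were past −0.8 (1.76%). The median log2 fold change of the members was 0.81, against −0.026 over all tested genes. Scaling by library size alone moved the median of all genes by 0.21 on the log2 scale in this contrast and by 0.15 in that with PF, and changed the direction of none of the 10 genes in either.

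Among the sensors, Nlrp1b, which is activated by proteolytic cleavage of its own amino terminus, was at 20.7, 31.0 and 28.1 CPM in WT and at 59.2, 47.6 and 39.7 CPM in AMPKβ1-/- BMDMs. The lowest AMPKβ1-/- library lay above the highest WT library, and the log2 fold change was 0.87 (SE 0.19, adjusted p 0.00179 with edgeR). Nlrc4, the partner of the NAIP receptors for flagellin, was at 4.17, 6.65 and 6.37 CPM in WT and at 9.48, 10.4 and 10.3 CPM in AMPKβ1-/- (0.80, SE 0.19, adjusted p 0.00204). Aim2, which binds cytosolic DNA, was at 7.59, 11.3 and 10.2 CPM and at 16.1, 18.7 and 16.7 CPM (0.82, SE 0.18, adjusted p 0.00102). The 3 sensors thus had libraries that did not overlap between genotypes, while for Nlrp3 the AMPKβ1-/- libraries (85.5 to 95.1 CPM) overlapped those of WT (75.0 to 92.0 CPM), and its log2 fold change was 0.12 with a 95% interval from −0.053 to 0.30.

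Of the downstream genes, the adaptor Pycard was lower in AMPKβ1-/- BMDMs, at 49.4, 55.4 and 53.7 CPM against 87.1, 83.4 and 62.1 CPM in WT (−0.55, SE 0.11, adjusted p 0.000885). The proteases were higher. Casp1 was at 36.7, 47.5 and 42.2 CPM against 15.2, 21.6 and 28.3 CPM in WT (0.96, SE 0.19, adjusted p 0.000917), and Casp4 at 9.39, 8.54 and 7.95 CPM against 2.14, 4.52 and 5.67 CPM (1.06, SE 0.28, adjusted p 0.00507). Their substrate Gsdmd was lower, at 151, 125 and 140 CPM against 196, 175 and 195 CPM in WT (−0.45, SE 0.086, adjusted p 0.000506). Of the NLRP3 partners, Nek7 had the widest difference of the 10 genes, 50.2, 68.9 and 75.2 CPM against 17.1, 24.9 and 20.6 CPM in WT (log2 fold change 1.63, SE 0.24, adjusted p 0.000161). Txnip had the smallest p of the 10, with 857, 956 and 967 CPM against 1274, 1355 and 1326 CPM in WT (−0.51, SE 0.070, adjusted p 7.16e-05). The fall of Txnip in AMPKβ1-/- cells amounted to a level of 0.703 of WT.

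With PF, the same comparison between genotypes called all 10 genes, where 47.1% of all tested genes were called, 24.1% higher and 22.9% lower, and all 10 had groups that did not overlap (59.9% of all tested genes). The 6 genes that were higher with vehicle were higher with PF as well, and so was Nlrp3, at 92.7, 93.6 and 93.1 CPM in AMPKβ1-/- against 68.2, 71.1 and 67.2 CPM in WT (0.44, SE 0.083, adjusted p 0.000704). Of these, Nlrp1b (1.07), Nek7 (1.13), Casp4 (0.94) and Nlrc4 (0.89) were past a log2 fold change of 0.8, as were 12.2% of all tested genes. Pycard (−0.37, SE 0.11, adjusted p 0.0154), Gsdmd (−0.31, SE 0.086, adjusted p 0.00818) and Txnip (−0.41, SE 0.070, adjusted p 0.000301) were lower. The level of Nlrp3 thus ordered as WT with PF (68.8 ± 2.0 CPM, SD, n = 3), WT with vehicle (83.3 ± 8.5), AMPKβ1-/- with vehicle (90.7 ± 4.9) and AMPKβ1-/- with PF (93.1 ± 0.45). Only the first had libraries that did not overlap those of the next group. With vehicle, edgeR called Nlrp3 higher in AMPKβ1-/- than in WT with library size scaling (0.33, adjusted p 0.00574) and with the transcript GC offset (0.18, adjusted p 0.0424). For Txnip the order was AMPKβ1-/- with vehicle (927 ± 61 CPM) and with PF (956 ± 33), which overlapped, then WT with PF (1273 ± 18) and with vehicle (1318 ± 41), which overlapped as well. Without WT PF library 2, Aim2 (adjusted p 0.0653) and Pycard (0.0759) were no longer called. Pycard also lost its call without AMPKβ1-/- PF library 3, Casp1 without WT PF library 1 or AMPKβ1-/- PF library 1 or 2, and Casp4 without AMPKβ1-/- PF library 1, with adjusted p from 0.0527 to 0.0803.

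Differences between genotypes followed the GC content of the genes, and the members lie at different places in that range. Nek7, Casp1, Casp4 and Aim2 have transcripts with 40.4% to 42.8% GC, Pycard and Nlrc4 45.6% and 45.8%, Txnip and Nlrp1b 48.5% and 48.7%, Nlrp3 51.0% and Gsdmd 54.4%, where the median of tested genes was 50.3%. In the contrast with vehicle, genes within 2 points of the GC content of Casp1, Aim2 and Casp4 had median log2 fold changes of 1.07, 0.83 and 0.95, about those of the 3 genes themselves (0.96, 0.82 and 1.06). Genes like Nek7 had a median of 1.19 and genes like Gsdmd of −0.31. Genes of the GC content of Nlrp1b had a median of 0.073 against its own 0.87, and genes like Txnip one of 0.089 against its own −0.51. Txnip, Nlrp1b and Pycard lay farthest from the medians, but the GC content of Pycard is uncertain, with 45.6% in the transcript used and 54.4% in its coding part.

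**Figure D3:**
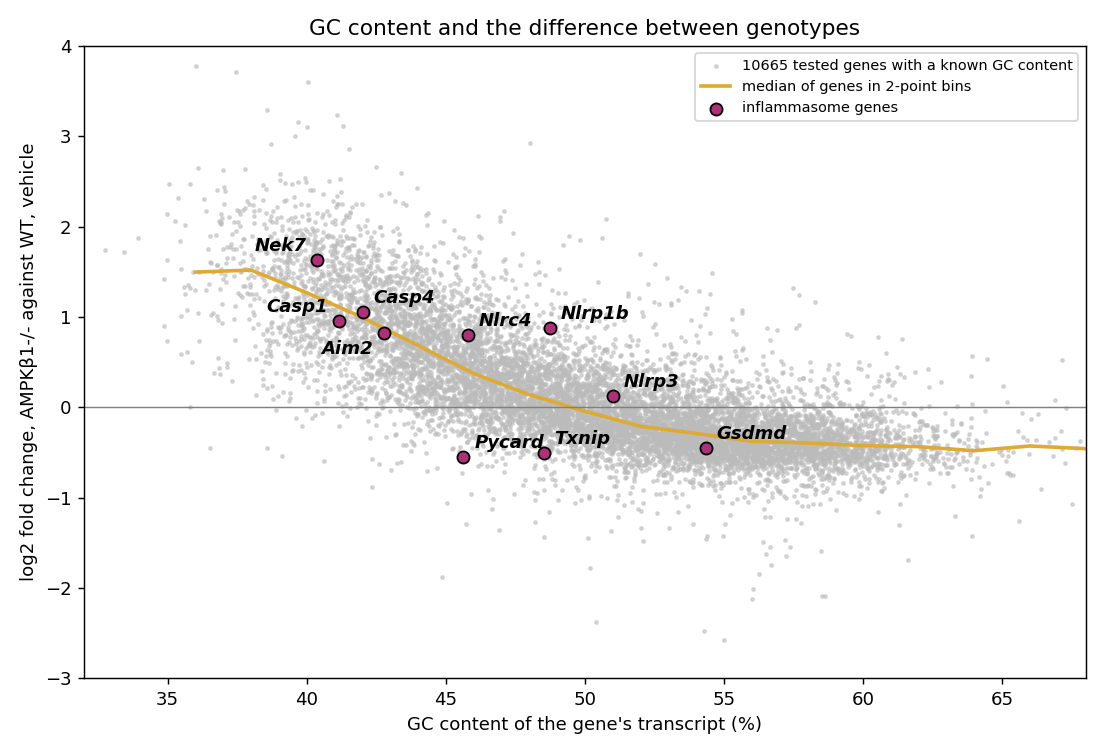
Log2 fold change of AMPKβ1-/- against WT with vehicle (vertical axis) and GC content of the transcript in percent (horizontal axis) for 10665 tested genes (grey, 9 outside the axes), with the median in bins of 2 points (line) and the 10 inflammasome genes (purple). Casp1, Casp4 and Aim2 lie near the line, Nlrp1b above it, and Txnip and Pycard below it.

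With an offset for the trend of each library in transcript GC content and length, 34.8% of all tested genes were called with vehicle and 38.6% with PF. With vehicle Nlrp1b (0.76, adjusted p 0.00779), Nek7 (0.40, adjusted p 0.00752) and Nlrp3 (0.18, adjusted p 0.0424) were higher and Txnip (−0.56, adjusted p 9.97e-07) and Pycard (−1.04, adjusted p 0.000353) lower. Casp1 was then at 0.045 (adjusted p 0.857), Aim2 at 0.047 (adjusted p 0.819), Casp4 at 0.26 (adjusted p 0.427), Nlrc4 at 0.29 (adjusted p 0.192) and Gsdmd at −0.10 (adjusted p 0.207). An offset built from the coding sequence alone, chosen after seeing the data because of Pycard, called 42.9% of all tested genes with vehicle and 42% with PF. It left Nlrp1b (0.45, adjusted p 0.039) and Nek7 (0.75, adjusted p 0.000218) higher and Pycard (−0.29, adjusted p 0.0214), Gsdmd (−0.27, adjusted p 0.00429) and Txnip (−0.48, adjusted p 1.75e-05) lower with vehicle.

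With PF, Nlrp3, Nlrc4 and Nlrp1b were higher and Txnip was lower without an offset and with both, with Nlrp3 at 0.46 (adjusted p 3.73e-05) and 0.26 (adjusted p 0.00582) under the transcript and coding offsets and Nlrp1b at 1.01 (adjusted p 0.00104) and 0.70 (adjusted p 0.00346). Casp1 turned from 0.58 to −0.075 (adjusted p 0.718) and −0.40 (adjusted p 0.0312), and Nek7 was at 0.041 (adjusted p 0.766) and 0.53 (adjusted p 0.00155). The neighbours Casp1 and Casp4 no longer went the same way under the coding offset with PF, with Casp4 at 0.36 (adjusted p 0.184). Nlrp1b higher and Txnip lower were the differences called in both contrasts and in all 3 versions. Over all 22 alternatives the log2 fold change of Txnip was between −0.56 and −0.30 with vehicle (highest adjusted p 0.00207) and between −0.44 and −0.27 with PF (0.00599), and that of Nlrp1b between 0.45 and 1.08 (0.039) and between 0.70 and 1.25 (0.00346).

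**Figure D4:**
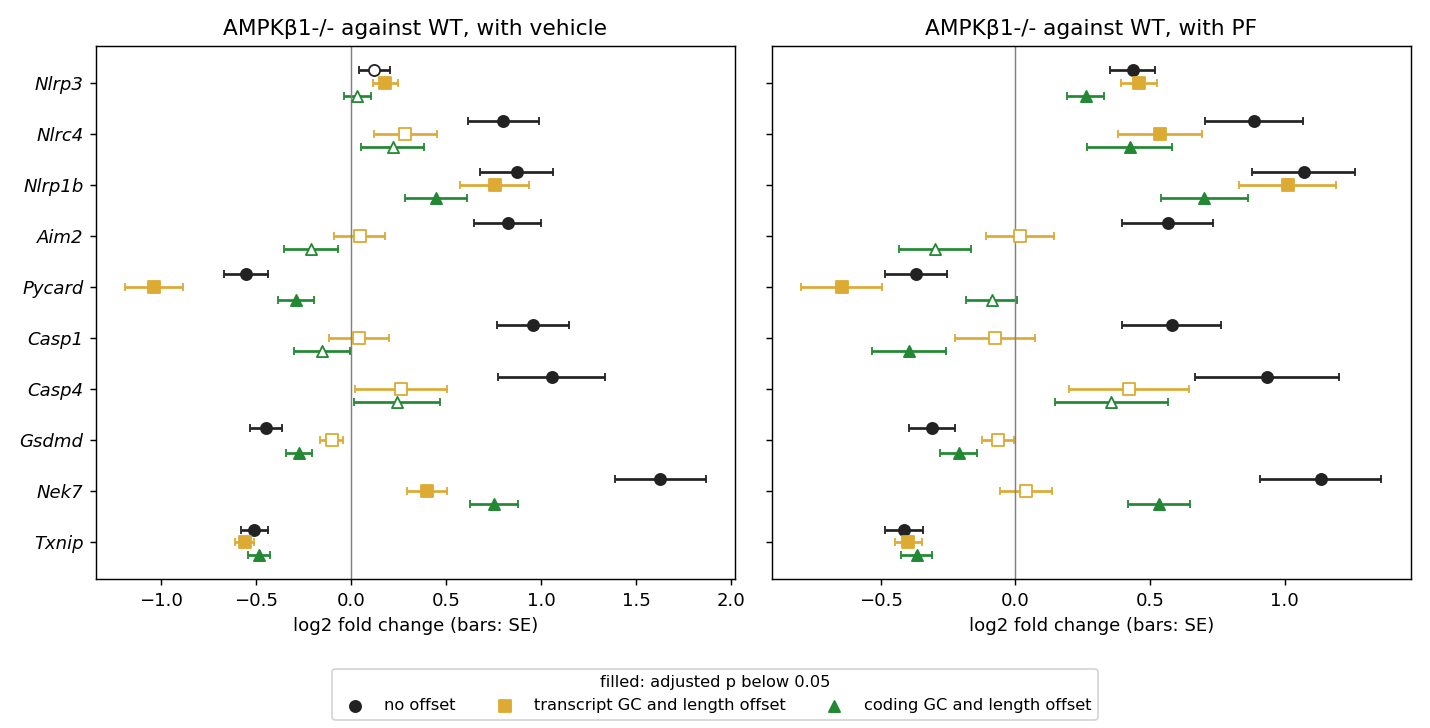
Log2 fold change of AMPKβ1-/- against WT for each gene with vehicle (left) and with PF (right), without an offset (circles), with the transcript GC and length offset (squares) and with the coding GC and length offset (triangles), bars giving the SE and filled symbols an adjusted p below 0.05. Nlrp1b stays to the right and Txnip to the left of 0 in all versions, and Casp1, Aim2 and Casp4 move toward or past 0 with the offsets.

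A wider list of 65 genes with roles around the inflammasome had 61 rows in the table and 57 genes past the filter. Nlrp6, Nlrp12, Casp12 and Trim31 were not analysed here, and Naip1, Il1a, Serpinb1a and Mlxipl had too few counts to be tested. PF in WT BMDMs raised 5 and lowered 3 of the 57, beside 15.9% of all tested genes, 6.99% higher and 8.95% lower. Among the higher genes were Brcc3 (0.72, adjusted p 0.0164), which deubiquitinates NLRP3, Nek6 (0.49, adjusted p 0.00862), the closest paralog of Nek7, Il1rn (0.49, adjusted p 0.0371), the antagonist of the IL-1 receptor, and Txn1 (0.49, adjusted p 0.0127), the thioredoxin bound by TXNIP. The lower genes were Trpm2, a calcium channel opened by oxidative stress (−0.66, adjusted p 0.00927), Pstpip1, a pyrin-binding protein (−0.40, adjusted p 0.0057), and Nek9 (−0.25, adjusted p 0.0476). Nek6 was at 32.8, 28.2 and 27.9 CPM with vehicle and 40.1, 39.4 and 45.4 CPM with PF, and was called in all 22 alternatives (highest adjusted p 0.0475), while the others lost their call in 1 (Pstpip1) to 17 (Nek9) of 22. With the transcript GC offset 2 genes of the list were called, Nek6 higher and Il1b lower, beside 7.21% of all tested genes. With the coding offset 3 were called, Nek6 higher and Il1b and Pstpip1 lower, beside 7.22% of all tested genes.

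The cargo of the pathway was scarce in these cultures. Il1b, the precursor of IL-1β, was at 3.85, 3.88 and 3.09 CPM in WT with vehicle, 2.06, 2.99 and 2.46 CPM in WT with PF, 3.46, 4.63 and 5.20 CPM in AMPKβ1-/- with vehicle and 4.88, 5.18 and 5.11 CPM in AMPKβ1-/- with PF. All WT PF libraries lay below all other libraries, with a log2 fold change in WT of −0.53 (SE 0.22) and an adjusted p of 0.102. Under the transcript and coding GC offsets Il1b was lower with PF in WT (−0.82, adjusted p 0.0165, and −0.80, adjusted p 0.0226). With PF it was higher in AMPKβ1-/- than in WT BMDMs (1.02, SE 0.21, adjusted p 0.00117), as it was in all 22 alternatives (0.90 to 1.16, highest adjusted p 0.00658). The interaction of Il1b was −0.72 (SE 0.29, adjusted p 0.287). Il18 was between 2.12 and 4.85 CPM in all libraries and was not called in any contrast without an offset or with the transcript GC offset. With the coding GC offset Il18 was lower in AMPKβ1-/- BMDMs with vehicle (−0.94, adjusted p 0.0108) and with PF (−1.25, adjusted p 0.00092), against 0.39 and 0.023 without an offset. Il1a had at most 2 counts in a library.

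In AMPKβ1-/- BMDMs PF changed 0 of the 57 genes by edgeR (0.0554% of all tested genes), and 0 were called by DESeq2 or limma-voom. With edgeR 2 had an unadjusted p below 0.05 (4.98% of all tested genes), Gsdme and Mlkl, named after their values were seen. The interaction was called for 0 (0.416% of all tested genes), with 13 at an unadjusted p below 0.05 (14.3% of all tested genes). Between genotypes with vehicle 21 genes were higher and 14 lower (61.4%, beside 59.7% of all tested genes). The counts by role that follow stand beside 29.7% higher and 30% lower among all tested genes. The other sensors and receptors had 6 of 12 higher and 2 lower, with Ifi204 (1.02), Nlrp10 (1.01) and Cgas (0.68) the widest, and Nlrx1 (−0.61) and Nod1 (−0.54), named after their values were seen, lower. The inhibitors and repair genes had 5 of 8 higher, led by Xiap (2.40), an inhibitor of caspases, Dpp8 (0.80), which restrains NLRP1B, and Trim30a (0.59), and 1 lower, the membrane repair gene Chmp4b (−0.24), named after its value was seen. The positive cofactors had 5 of 12 higher, with Gbp7 (1.80), Ddx3x (1.58) and Eif2ak2 (1.17), and 3 lower. Of 9 other caspases and death executors 3 were higher and 3 lower, the lower ones led by the death adaptor Fadd (−0.58) and the membrane-rupture protein Ninj1 (−0.50). Of 6 ion channel genes P2rx4 (−0.34) and Vdac1 (−0.33) were lower and 0 higher. Txn1 (0.48) and Txnrd1 (0.46) were higher and Nek6 (−0.29) lower among 6 genes of the thioredoxin axis and related kinases. Of the 4 substrates and antagonists, the antagonists Il18bp (−0.54) and Il1rn (−0.46) were lower and 0 were higher.

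With the transcript GC offset 19 genes of the list were called with vehicle, beside 34.8% of all tested genes. Of the 35 called without it, 12 were called in the same direction, 4 were called in the opposite direction (Brcc3, Naip5, Ripk1 and Trim30a, the first 3 named after their values were seen), and 26 kept their sign. With the coding offset 24 were called, beside 42.9% of all tested genes, 15 in the same direction and 3 in the opposite one (Naip2, also named after its value was seen, Naip5 and Ripk1), and 23 of the 35 kept their sign. Xiap (0.76 and 1.29), Txn1 (0.34 and 0.39) and Txnrd1 (0.50 and 0.37) were higher and Il1rn (−0.92 and −0.54) was lower under both, whereas Ifi204 was at 0.024 and −0.14 and Trim30a turned from 0.59 to −0.48 (adjusted p 0.0138) and −0.14 (adjusted p 0.394). Ninj1 was at −0.015 (adjusted p 0.869) and −0.10 (adjusted p 0.271) and was called under neither. Fadd lost its call with the coding offset (−0.19, adjusted p 0.0857). Nlrp10, Cgas and Gbp7 lost theirs with the transcript offset (adjusted p 0.335, 0.27 and 0.141 with edgeR), as did Dpp8. Il18bp lost its call in 2 of 22 alternatives, among them the coding offset (highest adjusted p 0.168). P2rx4 and Vdac1 lost theirs with the transcript offset (−0.099, adjusted p 0.122, and −0.15, adjusted p 0.071) and with library size scaling (−0.13, adjusted p 0.0524, and −0.12, adjusted p 0.14). Nek6 with vehicle lost its call in 7 of 22 alternatives (−0.80 to −0.081, highest adjusted p 0.537), among them the fits without WT vehicle library 1 or AMPKβ1-/- vehicle library 2 or 3. With PF 14 genes were higher and 16 lower between genotypes (52.6%, beside 47.1% of all tested genes, 24.1% higher and 22.9% lower). Il1rn was at 7.58, 7.22 and 8.09 CPM in AMPKβ1-/- and 22.1, 15.9 and 16.2 CPM in WT (−1.24, SE 0.15, adjusted p 2.1e-05). Nek6 was lower (−0.74, SE 0.10, adjusted p 7.28e-05 with edgeR), as it was in all 22 alternatives (highest adjusted p 0.000814). Its paralog Nek7 was higher without an offset and with the coding offset, but was at 0.041 (adjusted p 0.766) with the transcript GC offset. Zbp1 (−1.01) and Fbxl2 (−0.52) were lower and Mefv (0.74), the gene for pyrin, was higher with PF, and these 3 were not called with vehicle (adjusted p 0.0525, 0.485 and 0.714). Arrdc4, the relative of Txnip that responds to the same glucose sensor, was lower with PF (−0.37, adjusted p 0.00514) and at −0.14 (adjusted p 0.231) with vehicle.

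**Figure D5:**
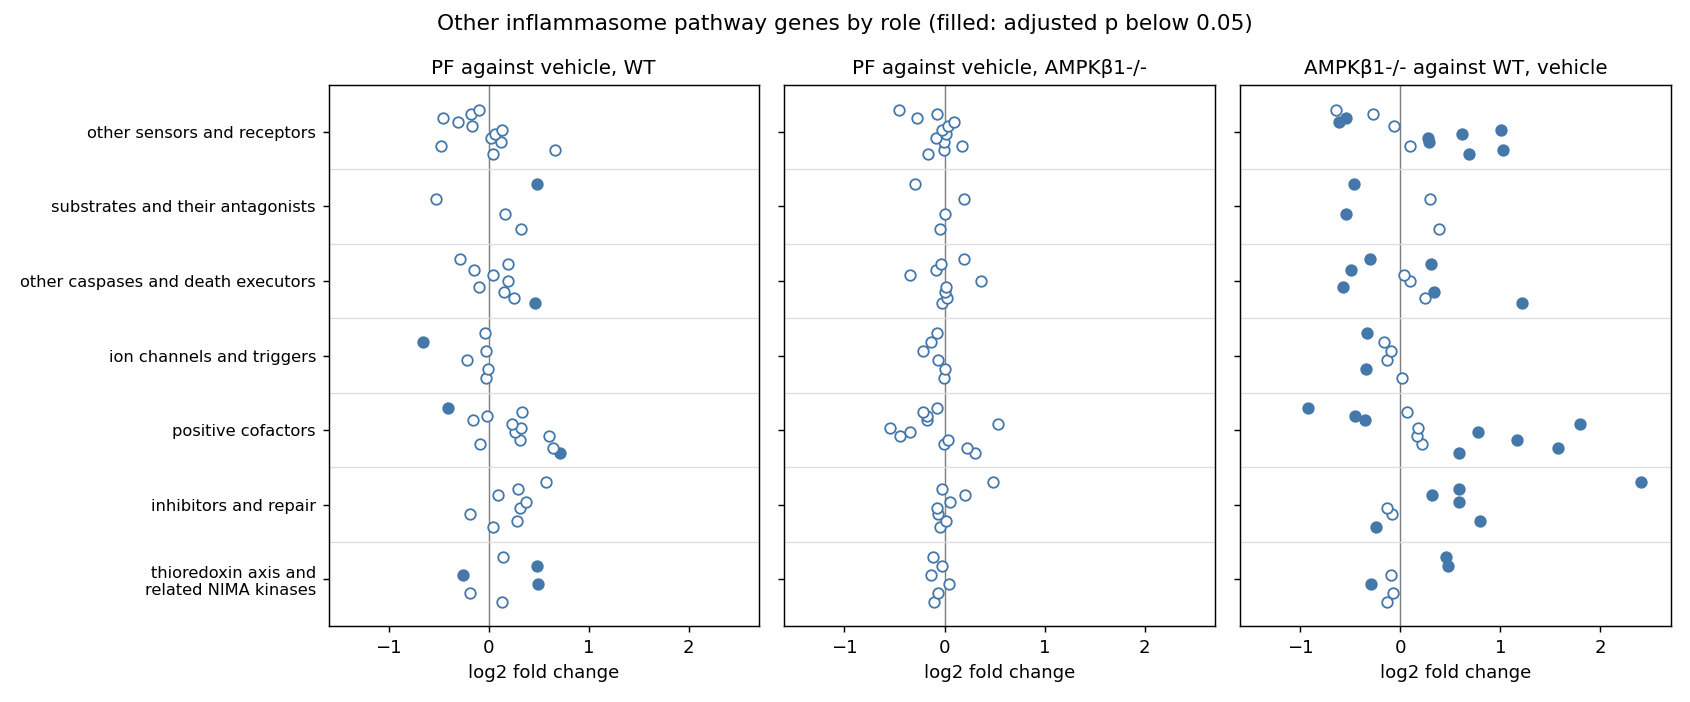
Log2 fold change of the 57 tested genes of the wider list, 1 point per gene, in rows by role, for PF against vehicle in WT (left) and in AMPKβ1-/- BMDMs (middle) and for AMPKβ1-/- against WT with vehicle (right), filled where the adjusted p was below 0.05. There are 8 filled points on the left, 0 in the middle and 35 on the right, where Xiap is farthest from 0 at 2.40.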

How the data were processed

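RNA of 12 BMDM libraries was sequenced as paired-end reads of 50 bases. Per the submitters' processing notes and the study's methods, the authors used MultiQC to check the raw reads, Trim Galore for trimming and Salmon for quantification. They deposited 1 table of estimated counts per gene, as whole numbers, and the tools' versions, genome build and annotation are not given in the sources used here. Samples were grouped by their labels, and libraries carry the numbers 1 to 3 of their count columns.

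Counts were filtered by edgeR's filterByExpr, scaled by TMM and fitted with edgeR's robust quasi-likelihood test (edgeR 4.0.16, R 4.3.3) over all 12 libraries and 10822 genes, with Benjamini-Hochberg adjustment over these genes and calls at an adjusted p below 0.05. SE was derived from the log2 fold change and the F statistic of the quasi-likelihood test. Levels are TMM-normalized CPM. The fit was checked on simulated counts that held no GC trend, so the check does not cover calls that follow GC content. Alternatives were DESeq2 1.42.0, limma-voom (limma 3.58.1), other scalings and filters, fits on the libraries of 1 contrast alone, leaving out each library, and offsets for GC content and length (a spline with 5 degrees of freedom). GC content and coordinates came from GENCODE M21 on GRCm38, where 12703 gene symbols matched directly, 4 by an older symbol and 253 did not match. Intervals are at 95% and the floor of 3 counts covers counting error only.

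The members and the wider list were chosen with earlier results of these data known. All members were named in every contrast. Of the wider list, genes called for PF in WT BMDMs and the 3 widest called changes of each role between genotypes were named, with Il1a, Il1b, Il18, Prkab1, Nek6, Arrdc4 and Nlrp1a in any case. Of the genes this rule names, 1 is not reported here.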

Additional observations from a re-analysis of the deposited data

Results flagged for a closer look

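Of the wider list, Il1rn and Ripk3, the kinase of necroptosis, had PF and vehicle libraries that did not overlap in either genotype, and the genotypes moved in opposite directions. They were picked for this pattern. Of all tested genes, 32.2% did not overlap in WT and 14.5% in AMPKβ1-/- BMDMs. The share that did so in both genotypes in opposite directions was not computed, so the pattern is not shown to be unusual. Il1rn was at 14.8, 12.5 and 11.4 CPM with vehicle and 22.1, 15.9 and 16.2 CPM with PF in WT, and at 9.21, 9.06 and 9.76 CPM with vehicle and 7.58, 7.22 and 8.09 CPM with PF in AMPKβ1-/- BMDMs. Its difference between the responses was 0.78 on the log2 scale (SE 0.22) and did not pass edgeR's test over all genes (adjusted p 0.135, and 0.087 to 0.383 over 21 alternatives). Ripk3 was at 22.2, 20.8 and 21.1 CPM with vehicle and 17.5, 17.6 and 17.4 CPM with PF in WT, and at 17.4, 18.3 and 15.9 CPM with vehicle and 18.4, 22.3 and 18.6 CPM with PF in AMPKβ1-/- BMDMs. Its difference was −0.49 (SE 0.16, adjusted p 0.177, and 0.113 to 0.415 over 21 alternatives). Groups of 3 libraries are too small for a check of single outlying libraries.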

How the results depend on the processing

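The number of inflammasome genes called for PF in WT BMDMs, 2, became 1 with library size or upper quartile scaling, limma-voom, the transcript GC offset or a log2 fold change past 0.8, 0 without a low-count filter, with the libraries of the contrast alone or with the coding GC offset, and DESeq2 called 3. It was between 0 and 3 with 1 library left out. The 8 genes of the wider list became 2 with the transcript GC offset, 3 with the contrast alone or the coding GC offset and 0 past 0.8, and 3 to 10 with 1 library left out, and the interaction gave 0 to 1. Between genotypes with vehicle the 9 members became 5 with either offset, and the 35 genes of the wider list 19 with the transcript GC offset and 8 past 0.8. With PF the 10 members became 5 with the transcript GC offset and 4 past 0.8, and the 30 genes of the wider list 9 past 0.8. Where no value above shows it, the cause was not tested.

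Among the genes named by rule, direction turned with the transcript GC offset for PF in WT in Nlrc4 (−0.085), Aim2 (−0.10), Casp4 (−0.23) and Il18 (−0.22), for PF in AMPKβ1-/- in Aim2 (−0.13), Casp1 (−0.077) and Casp4 (−0.071), for the interaction in Casp4 (−0.16), and between genotypes in Trim30a (−0.48) and Il18 (−0.31) with vehicle and Casp1 (−0.075) and Il18 (−0.23) with PF. With the coding GC offset it turned, among the same genes, for PF in WT in Nlrc4 (−0.060), Aim2 (−0.15), Casp4 (−0.16) and Il18 (−0.18), for PF in AMPKβ1-/- in Aim2 (−0.24), Pycard (0.033), Casp1 (−0.14) and Casp4 (−0.048), and for the interaction in Casp4 (−0.11). Between genotypes the coding offset turned Aim2 (−0.21), Casp1 (−0.15), Dpp8 (−0.039), Trim30a (−0.14), Ifi204 (−0.14), Eif2ak2 (−0.015), Il1b (−0.043), Il18 (−0.94) and Arrdc4 (0.064) with vehicle, and Aim2 (−0.30), Casp1 (−0.40), Dpp8 (−0.10), Eif2ak2 (−0.22), Il18 (−1.25) and Nlrp1a (−0.28) with PF. Library size scaling turned Nlrp1b (0.0023) and Txnip (0.029) for PF in WT, Pycard (0.012) for PF in AMPKβ1-/- and Arrdc4 (0.074) and Nlrp1a (0.14) between genotypes with vehicle, and DESeq2 size factors and the DESeq2 test turned Pycard (0.0058) for PF in AMPKβ1-/-.

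With 1 library left out, ranges that crossed 0 were those of Nlrc4 (−0.040 to 0.27), Nlrp1b (−0.25 to 0.12) and Casp4 (−0.041 to 0.54) for PF in WT, of Nlrp3 (−0.0025 to 0.074), Nlrp1b (−0.0045 to 0.28), Aim2 (−0.030 to 0.12), Pycard (−0.051 to 0.043), Casp4 (−0.023 to 0.24), Txnip (−0.0087 to 0.077) and Il18 (−0.23 to 0.065) for PF in AMPKβ1-/-, of Nlrc4 (−0.27 to 0.039) and Casp4 (−0.17 to 0.41) for the interaction, and of Nlrp1a (−0.12 to 0.036) with vehicle and Il18 (−0.17 to 0.35) with PF between genotypes. The labels give no number that ties libraries across groups, but the count columns are numbered 1 to 3 in each group. Libraries with the same number did not all deviate together (correlation −0.18 to 0.32 over 18 pairs, median 0.045, above 0.1 in 6). For libraries of different groups with different numbers the correlation was −0.39 to 0.32 over 36 pairs (median −0.029, above 0.1 in 9). With 3 libraries per group these correlations cannot settle whether the numbers pair the libraries, and the main fit did not pair them. A replicate block on these numbers, added after seeing the data and not counted among the 22 alternatives, called 2, 0, 0, 9 and 10 members for PF in WT, PF in AMPKβ1-/-, the interaction and the genotypes with vehicle and with PF, and 8, 0, 0, 34 and 29 genes of the wider list, and changed no call or direction of a gene named by rule. Of all 10822 tested genes the block called 1983, 0, 47, 6446 and 5185 in the same order, against 1725, 6, 45, 6465 and 5094 without it. The few counts of Casp4, Nlrc4, Il1b and Il18 limit their precision.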
